A study of Mus musculus with 91 samples.

Results

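Zinc in cortical neurons is moved by the SLC30 (ZnT) transporters, which export it from the cytosol, by the SLC39 (ZIP) transporters, which import it, and is bound by metallothioneins. The genes described here are 7 transporters (Slc30a1, Slc30a3, Slc30a4, Slc30a5, Slc30a9, Slc30a10 and Slc39a10) and 3 metallothioneins (Mt1, Mt2 and Mt3), 10 of the 34745 gene rows measured. They were chosen by symbol as genes of zinc handling, around Slc30a3, which was picked because it was detected mostly in the Pyr←LP neurons. For that reason the values of Slc30a3 by neuron type are a description and carry no test.

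The neurons were pyramidal neurons (Pyrs) of layer 5 (L5) of the primary visual cortex (V1), each drawn into the patch pipette after recording and sequenced as a single cell (Patch-seq). All came from wild-type mice, which the methods give as adult C57 animals of either sex, with no treatment that set the groups apart. The 47 Pyr←LP and 44 Pyr←ORBvl neurons (spelled Pyr <-- LP and Pyr <-- ORBvl in the labels) are named for the long-range input they receive, from the lateral posterior thalamic nucleus (LP) or the ventrolateral orbital cortex (ORBvl). The authors assigned each sequenced neuron to a type by a classifier on its Ih slope, and did not test its inputs directly. The Ih slope is the rate of change of the hyperpolarization-activated current (Ih) during a voltage step. The labels do not tie neurons to mice, so neurons that share a recording prefix may share an animal. The prefix is the start of the neuron's name, of which there were 17 with hyphens removed and 20 as spelled.

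ZnT3, the product of Slc30a3, loads zinc into synaptic vesicles of glutamatergic terminals, and is the textbook source of the zinc that cortical neurons release with glutamate. ZnT1 (Slc30a1) expels zinc across the plasma membrane, ZIP10 (Slc39a10) brings it in, ZnT4 and ZnT5 (Slc30a4, Slc30a5) fill compartments of the secretory pathway, ZnT9 (Slc30a9) acts in mitochondria, and ZnT10 (Slc30a10) is known mainly as a manganese exporter. Metallothioneins are small cysteine-rich proteins that buffer zinc. Mt1 and Mt2 are induced by metals through the transcription factor MTF1, in glia above all, whereas Mt3 is the brain-enriched form.

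The Slc30 and Slc39 genes lie on separate stretches of chromosomes 1, 2, 5 and 13, and the metallothioneins in a row on chromosome 8. On GRCm38 (GENCODE M21), Slc30a3 (ENSMUSG00000029151) spans chr5:31086106-31108237 on the minus strand, Slc30a9 (ENSMUSG00000029221) spans chr5:67306955-67358443 on the plus strand, and Slc39a10 (ENSMUSG00000025986) spans chr1:46807544-46892852 on the minus strand. Mt3 (chr8:94152607-94154146), Mt2 (chr8:94172664-94173568) and Mt1 (chr8:94179082-94180327) follow each other on the plus strand within 27721 bases. Reads were counted over the exons of a gene, and no stranded kit is named. Of the 10 genes, 4 share exon bases with an annotated gene on the opposite strand, Mt2 with 432 bases, Slc30a10 with 533, Slc30a1 with 468 and Slc30a4 with 130, so for these the reads of the partner cannot be told apart.

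The coding sequences of the 3 metallothioneins are shown because their counts are reported separately although the genes are near relatives. In the lines for Mt1 and Mt2, capitals mark the bases at which these genes differ from each other. In the line for Mt3, capitals mark the bases that differ from Mt1 or have no counterpart in it. They were read from the GENCODE M21 transcripts Mt1-201, Mt2-201 and Mt3-201.
Mt1: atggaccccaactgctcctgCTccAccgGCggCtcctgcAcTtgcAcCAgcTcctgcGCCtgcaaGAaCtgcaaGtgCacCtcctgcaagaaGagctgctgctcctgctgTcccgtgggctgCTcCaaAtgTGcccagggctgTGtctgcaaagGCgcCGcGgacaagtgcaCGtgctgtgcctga
Mt2: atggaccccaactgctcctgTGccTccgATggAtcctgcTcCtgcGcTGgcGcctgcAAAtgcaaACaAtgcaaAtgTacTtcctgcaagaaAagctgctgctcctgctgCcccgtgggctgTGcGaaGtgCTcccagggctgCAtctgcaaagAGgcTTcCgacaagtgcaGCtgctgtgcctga
Mt3: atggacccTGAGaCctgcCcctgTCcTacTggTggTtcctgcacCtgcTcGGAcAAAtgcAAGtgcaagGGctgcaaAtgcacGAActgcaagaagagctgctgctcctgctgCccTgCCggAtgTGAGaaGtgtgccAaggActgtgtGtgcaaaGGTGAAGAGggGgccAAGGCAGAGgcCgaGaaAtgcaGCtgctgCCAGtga
Mt1 and Mt2 have coding sequences of 186 bases that differ at 38 positions (79.6% identical). Mt3, at 207 bases, carries 21 bases with no counterpart in Mt1 and is identical to it at 73.7% of the aligned bases. The longest run of identical bases shared by full transcripts was 20 between Mt1 and Mt2 and 27 between Mt1 and Mt3. The substitutions are spread along the coding sequence, and the authors counted only reads that aligned to a single place.

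The promoters of the metallothioneins are shown because Mt1 and Mt2 are known targets of MTF1, which binds metal response elements. The letters searched were the core TGCACNC or TGCGCNC on either strand, where N is any base, and the matches are in capitals. Each window runs from 250 bases before to 50 bases after the annotated start (RefSeq, GRCm38.p6, plus strand), at chr8:94178839-94179138 for Mt1, chr8:94172368-94172667 for Mt2 and chr8:94152357-94152656 for Mt3.
Mt1: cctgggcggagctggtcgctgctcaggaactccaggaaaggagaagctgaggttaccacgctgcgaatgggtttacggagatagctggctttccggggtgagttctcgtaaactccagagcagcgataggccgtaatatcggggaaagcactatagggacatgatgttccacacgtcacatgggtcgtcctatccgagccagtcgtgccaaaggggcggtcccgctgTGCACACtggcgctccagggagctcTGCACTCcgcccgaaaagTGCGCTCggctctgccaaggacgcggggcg
Mt2: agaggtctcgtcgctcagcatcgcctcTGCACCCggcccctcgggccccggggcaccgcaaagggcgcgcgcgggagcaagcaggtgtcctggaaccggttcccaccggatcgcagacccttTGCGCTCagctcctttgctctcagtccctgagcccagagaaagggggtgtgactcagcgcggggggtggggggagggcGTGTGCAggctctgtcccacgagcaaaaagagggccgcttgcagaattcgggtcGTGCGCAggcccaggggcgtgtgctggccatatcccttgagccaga
Mt3: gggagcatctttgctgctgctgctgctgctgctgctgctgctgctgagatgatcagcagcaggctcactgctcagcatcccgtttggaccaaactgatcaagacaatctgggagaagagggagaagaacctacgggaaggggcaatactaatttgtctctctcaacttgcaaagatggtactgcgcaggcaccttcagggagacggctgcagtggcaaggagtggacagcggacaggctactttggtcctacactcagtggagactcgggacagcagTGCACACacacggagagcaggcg
The Mt1 window held 3 matches, which started at -23, 2 and 20 bases from the start site (counted from 0). The Mt2 window held 4, which started at -223, -128, -50 and 4, and the Mt3 window held 1, at 27. Of 32851 promoter windows of this length, 25.7% held at least 1 match, 1.97% at least 3 and 0.517% at least 4. Slc30a4 and Slc30a10 also held 3 matches each, of which 2 in Slc30a10 overlap. Slc30a1, another known target of MTF1, held 2. The downstream of the 2 start sites of Slc30a3 (chr5:31093478-31093777, minus strand) held 0 matches and the upstream one (chr5:31108195-31108494) held 1. These matches describe the letters and not binding.

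Every one of the 10 genes was detected, with at least 1 count, in some of the 91 neurons, but the share ranged from 3.30% to 92.3%. Mt3 was detected in 84 neurons, Mt1 in 81 and Mt2 in 64. Among the transporters Slc30a9 came first with 55 neurons, followed by Slc39a10 with 40, Slc30a3 with 35, Slc30a1 with 33, Slc30a4 and Slc30a5 with 32 each, and Slc30a10 with 3. The deposited totals ran from 2410 to 1948982 counts per neuron. At the low end a single count is worth 415 CPM (counts scaled to a library of 1000000). A gene with no count in such a neuron may therefore have been present near or below that level.

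Of the 91 neurons, 8 were left out of the comparisons below by the exclusion rule of the methods, applied to the counts. The rule removes neurons with signs of inhibitory transcripts (a sum of log2(count + 1) over Slc32a1, Gad1 and Gad2 above 7) or fewer than 500 counts. No deposited total was under that minimum, so all 8 were removed by the inhibitory sum. This left 44 Pyr←LP and 39 Pyr←ORBvl neurons, a set that is not identical to the one the study kept. There the minimum also removed neurons, and the inhibitory sum removed fewer than here. Neurons are numbered here within each type in the order they were deposited, and these numbers are not those in their titles. Of the 8, Pyr←ORBvl neurons 5 and 11 had near-identical counts (Pearson r = 0.992 on the log2 scale, against at most 0.636 for any other pair). Median totals were 399786 in the Pyr←LP and 443593 in the Pyr←ORBvl neurons kept, and the median number of detected genes was 3214 and 3940. As a check of the pyramidal label, Slc17a7, the vesicular glutamate transporter of cortical Pyrs, was detected in 32 of 44 and 31 of 39 neurons, and Snap25 in all of them.

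The vesicular zinc transporter Slc30a3 was detected in 24 of the 44 Pyr←LP neurons (54.5%, 95% Wilson interval 40.1 to 68.3) and in 7 of the 39 Pyr←ORBvl neurons (17.9%, 8.98 to 32.7). In the Pyr←LP neurons its level ran from 0 to 1596 CPM, with a median of 9.78 and a mean of 173 ± 320 (SD, n = 44). In the Pyr←ORBvl neurons the median was 0, the highest value 210 CPM and the mean 11.9 ± 43.2 (SD, n = 39). The types overlap, since 20 Pyr←LP neurons had no count either, but the upper part of the range was held by Pyr←LP neurons alone.

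Which neurons carried Slc30a3 can be listed. Of the Pyr←LP neurons, neuron 38 had 1596 CPM (1448 counts), neuron 24 had 923, neuron 1 had 823, neuron 39 had 598 and neuron 40 had 588. A further 6 neurons lay between 324 and 475 CPM, among them neuron 16, whose 475 CPM rest on 2 counts of a shallow library. Of the 7 Pyr←ORBvl neurons, neuron 23 had 210 CPM (209 counts) and neuron 28 had 166 CPM (36 counts). The other 5 had 66.6, 18.1, 2.24, 1.64 and 0.923 CPM, each from 1 to 3 counts. With a minimum of 5 counts for detection, 20 Pyr←LP neurons and 2 Pyr←ORBvl neurons remained. When neurons with at least 100000 counts were thinned to that number, which left out 9 neurons of each type, Slc30a3 was found in 20 of 35 and 3 of 30.

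**Figure D1:**
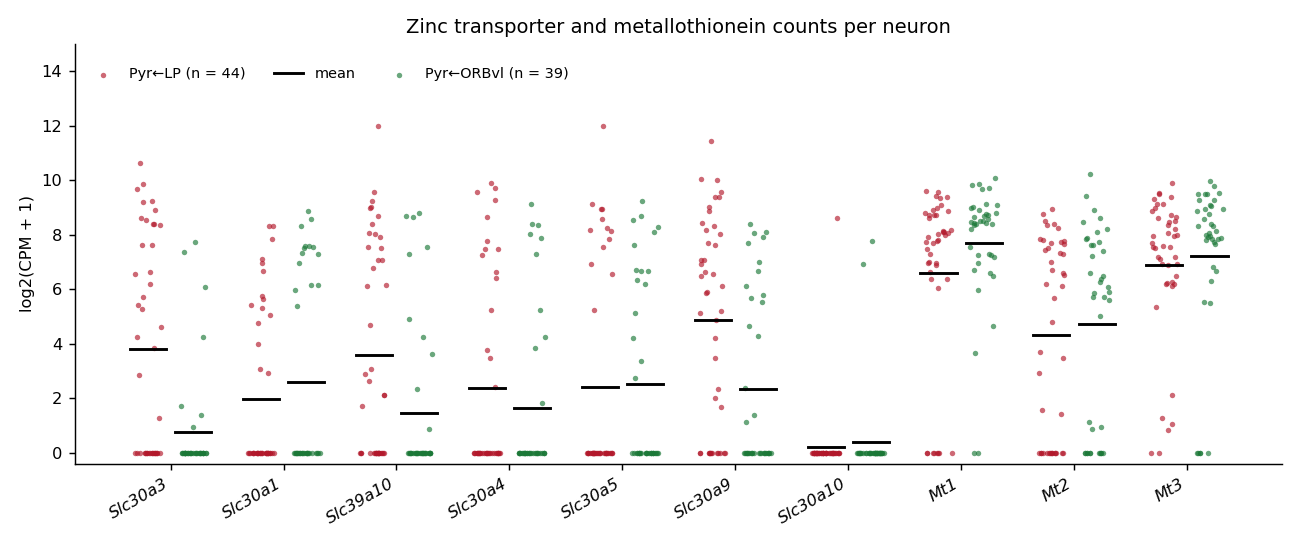
Level of each gene in each kept neuron, as log2(CPM + 1), with 44 Pyr←LP neurons in red, 39 Pyr←ORBvl neurons in green and the mean of each group as a black bar. Points at 0 are neurons with no count. The transporters are split between neurons at 0 and neurons at high values, with few Pyr←ORBvl neurons above 0 for Slc30a3, whereas Mt1 and Mt3 are above 0 in most neurons of both types.

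Slc30a3 was also described within recording prefixes. Of the 14 prefixes that held kept neurons of both types, mean CPM was higher in the Pyr←LP neurons in 10, higher in the Pyr←ORBvl neurons in 2 and 0 in both types in 2. In prefix 915, 4 of 6 Pyr←LP neurons and 0 of 4 Pyr←ORBvl neurons had a count, and in prefix 830 it was 2 of 3 and 0 of 5. The prefixes that went the other way were 826, with 1 neuron of each type, and 914, with 1 Pyr←LP neuron and 4 Pyr←ORBvl neurons. On counts summed per prefix the split was 8 higher in the Pyr←LP and 4 in the Pyr←ORBvl neurons. The CPM of sums are over the genes that passed the filter, with the TMM normalization of the fit below, unlike the CPM of single neurons. Prefixes 831 (92.7 against 154 CPM) and 902 (85.3 against 157 CPM) were then higher in the Pyr←ORBvl neurons, so the direction in these prefixes depends on whether neurons or counts are weighted equally.

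Slc30a3 was compared with all other genes that passed the filter for its neuron-to-neuron pattern within the Pyr←LP type. The likeness was Pearson's r of log2(CPM + 1) over the 44 neurons. The 5 genes most like it were Bri3 (r = 0.65), Ergic2 (0.61), Herpud2 (0.60), 2610507B11Rik (0.59) and Mkl1 (0.58). Over the 39 Pyr←ORBvl neurons, most of which had no Slc30a3 count, the same 5 gave 0.01, -0.06, 0.02, 0.26 and 0.12. They lead 7540 genes ranked this way, over neurons whose totals differ widely, and genes measured in 1 neuron share its depth. The summed log2(CPM + 1) of excitatory markers (Slc17a7, Gria2 and Camk2a) had r = 0.66 with Slc30a3 over the Pyr←LP neurons and 0.13 over the Pyr←ORBvl neurons. In the Pyr←LP neurons, 21 of the 24 with Slc30a3 also had a count for Slc17a7, which was detected in 32 of all 44. Fezf2, a transcription factor of L5 Pyrs, was found in 14 of the 24 and in 18 of the 44.

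The plasma membrane exporter Slc30a1 was detected in 15 of 44 Pyr←LP neurons (34.1%) and 14 of 39 Pyr←ORBvl neurons (35.9%). The difference was 1.81 percentage points, with a 95% interval (Newcombe) from -18.0 to 21.7. Its level ran to 316 CPM in the Pyr←LP and to 466 CPM in the Pyr←ORBvl neurons, with means of 33.8 ± 77.0 and 66.6 ± 116 (SD). In the 15 Pyr←LP neurons with a count the median was 49.5 CPM, and in the 14 Pyr←ORBvl neurons it was 169 CPM. Both groups hold values from under 50 to over 300 CPM.

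The importer Slc39a10 was detected in 24 of 44 Pyr←LP neurons (54.5%, 40.1 to 68.3) and 10 of 39 Pyr←ORBvl neurons (25.6%, 14.6 to 41.1). The highest Pyr←LP neuron, neuron 7, had 4094 CPM from 3858 counts, followed by neuron 14 with 762, neuron 18 with 599, neuron 45 with 512 and neuron 46 with 504. The highest Pyr←ORBvl neurons were neuron 16 with 445 CPM, neuron 19 with 415 from a single count, neuron 24 with 399, neuron 20 with 185 and neuron 34 with 156. Means were 203 ± 629 and 42.7 ± 117 CPM (SD), and neuron 7 alone held 45.9% of the summed CPM of its type. Without it the Pyr←LP mean was 112 CPM. Of the Pyr←ORBvl neurons left out, neuron 3 had 1145 CPM (1182 counts) and neuron 29 had 785, and over all 44 the Pyr←ORBvl mean was 84.0 CPM in place of 42.7. Mean CPM was higher in the Pyr←LP neurons in 11 of 14 prefixes.

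The mitochondrial transporter Slc30a9 was detected in 31 of 44 Pyr←LP neurons (70.5%, 55.8 to 81.8) and 16 of 39 Pyr←ORBvl neurons (41.03%, 27.1 to 56.6). In the Pyr←LP neurons its level had a median of 58.0 CPM and a mean of 240 ± 480 (SD), and the highest value was 2777 CPM in neuron 22, before neuron 10 with 1066 and neuron 4 with 1033. In the Pyr←ORBvl neurons the median was 0, the mean 46.7 ± 90.9 (SD) and the highest value 332 CPM in neuron 16. Of the kept Pyr←LP neurons, 9 lay above every kept Pyr←ORBvl neuron, and the rest overlapped with them. Of the Pyr←ORBvl neurons left out, neuron 11 had 556 CPM, neuron 29 had 512 and neuron 5 had 476, above some of these 9. Over all 44 Pyr←ORBvl neurons the mean was 77.8 CPM, and Slc30a9 was detected in 21 of them. Mean CPM was higher in the Pyr←LP neurons in 12 of 14 prefixes and higher in the Pyr←ORBvl neurons in 2.

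The secretory pathway transporters overlapped between the types. Slc30a4 was detected in 15 of 44 and 10 of 39 neurons and ran to 965 and 558 CPM. Slc30a5 was detected in 13 of 44 and 15 of 39 neurons. Its highest value, 4034 CPM in Pyr←LP neuron 16, rests on 17 counts of the same shallow library as above, and without it the Pyr←LP mean fell from 170 to 80.3 CPM, against 69.2 in the Pyr←ORBvl neurons. The manganese exporter Slc30a10 had a count in 1 Pyr←LP neuron, a single count in a library of 2545, and in 2 Pyr←ORBvl neurons, neuron 14 with 12 counts (218 CPM) and neuron 25 with 54 (122 CPM). It passed no filter and was not tested.

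Mt1 was detected in 36 of 44 Pyr←LP neurons (81.8%) and 37 of 39 Pyr←ORBvl neurons (94.9%). Its level had a median of 233 CPM and a maximum of 782 in the Pyr←LP neurons, and a median of 346 and a maximum of 1094 in the Pyr←ORBvl neurons. Mt3 was detected in 42 of 44 (95.5%) and 34 of 39 (87.2%), with medians of 189 and 269 CPM and maxima of 949 and 998. The order of these shares turned at 5 or more counts (77.3% and 84.6%) and after thinning (82.9% and 93.3%). Mt2 was the least often found, in 29 of 44 (65.9%) and 28 of 39 (71.8%), with medians of 59.8 and 58.7 CPM and maxima of 486 and 1210. The last rests on 14 counts of a library of 11566 (Pyr←ORBvl neuron 13), and the next highest was 692 CPM. The Mt3 maximum of the Pyr←LP neurons rests on 4 counts of the shallow neuron 16, before 741 CPM in neuron 4. The types overlapped over most of the range of each gene, and the highest value of each was in a Pyr←ORBvl neuron.

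Most neurons carried all 3 metallothioneins, 26 of the 44 Pyr←LP and 24 of the 39 Pyr←ORBvl neurons, and 1 neuron of each type carried none. The summed level of the 3 genes had a median of 543 CPM in the Pyr←LP and 743 CPM in the Pyr←ORBvl neurons. Transporters were sparser. A neuron had a count for a median of 3 of the 7 in the Pyr←LP type and 2 in the Pyr←ORBvl type, and for none of them in 1 and 5 neurons. The 7 include Slc30a3, which was chosen for its detection in the Pyr←LP neurons, so this tally by type is a description.

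Levels of different genes were compared only per length, on the deposited FPKM scale (fragments scaled to transcript length and library size). In the Pyr←LP neurons mean FPKM was 495 ± 413 for Mt1, 491 ± 438 for Mt3 and 199 ± 241 for Mt2 (SD, n = 44). Then came Slc30a5 (53.5), Slc30a3 (48.3), Slc39a10 (25.7), Slc30a4 (12.8), Slc30a9 (12.4), Slc30a1 (5.71) and Slc30a10 (1.53). In the Pyr←ORBvl neurons Mt1 had 666 ± 504, Mt3 634 ± 492 and Mt2 267 ± 421 (SD, n = 39), followed by Slc30a5 (21.8), Slc30a1 (11.2), Slc30a4 (6.17), Slc39a10 (5.42), Slc30a3 (3.33), Slc30a9 (2.42) and Slc30a10 (1.49). Slc30a3 was the fifth of the genes in the Pyr←LP and the eighth in the Pyr←ORBvl neurons. Its place in the Pyr←LP neurons rests on the shallow neuron 16, without which mean FPKM was 46.3 for Slc30a3 and 25.3 for Slc30a5. Slc30a5 was above Slc30a3 in 8 and below it in 19 Pyr←LP neurons. Mt1 and Mt3 could not be ordered, since Mt1 was the higher in 21 and the lower in 21 of the Pyr←LP neurons and in 20 and 18 of the Pyr←ORBvl neurons. Mt3 was above Mt2 in 35 of 44 and 28 of 39 neurons. Neighbouring transporters in the order differed by less than their SD.

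The order also depends on the gene lengths behind the FPKM values. Worked out from the counts, these were 19324 bases for Slc30a9, 3178 for Slc30a5, 540 for Mt1 and 538 for Mt3, against 12374, 7294, 1246 and 1066 bases of merged exons in GENCODE M21. Rescaled to merged exons, mean FPKM in the Pyr←LP neurons was 248 for Mt3, 214 for Mt1 and 188 for Mt2, followed by 61.0 for Slc30a3, 33.3 for Slc39a10 and 23.3 for Slc30a5. In the Pyr←ORBvl neurons it was 320 for Mt3, 289 for Mt1 and 252 for Mt2, and Slc30a3 stayed the eighth with 4.21. The metallothioneins were above every transporter with either set of lengths, whereas the gap between Mt2 and the other metallothioneins was smaller with merged exons.

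Detection was tested for every gene that had at least 5 counts in at least 10 kept neurons, 7542 in all (two-sided Fisher's exact test over neurons, Benjamini-Hochberg adjustment over all of them). The test and the intervals treat neurons as independent, although neurons of the same recording prefix may share an animal. Of the 10 genes, 9 passed that filter and 8 were tested. Slc30a3, Slc30a4 and Slc39a10 would not have passed on their Pyr←ORBvl neurons alone. At an adjusted p under 0.05, 0 of the 8 differed between the types, beside 0.212% of all genes tested. Slc30a9, which passed the filter in either type, had -29.4 points (Pyr←ORBvl minus Pyr←LP, interval -47.4 to -8.04, exact p = 0.00843, adjusted p = 0.362), and 8.41% of all genes had an unadjusted p under 0.05. Within the 14 prefixes with both types, the difference for Slc30a9 had a mean of -29.9 points and an SD of 46.7. Slc39a10 had -28.9 points (-46.6 to -7.74), which is a description, as it entered the test only through the Pyr←LP neurons, where it was high. Mt1 was detected more often in the Pyr←ORBvl neurons by 13.1 points (-1.55 to 27.3, exact p = 0.0944, adjusted p = 0.697).

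Most genes leaned to the other side. Over all 7542 genes, 31.8% had the larger share in Pyr←LP neurons and the median difference was 4.90 points toward the Pyr←ORBvl neurons, in which more genes were detected. A difference as low as that of Slc30a9 was found for 21 of the 7542 genes. Slc30a3, chosen for this readout, had -36.6 points, which is a description.

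**Figure D2:**
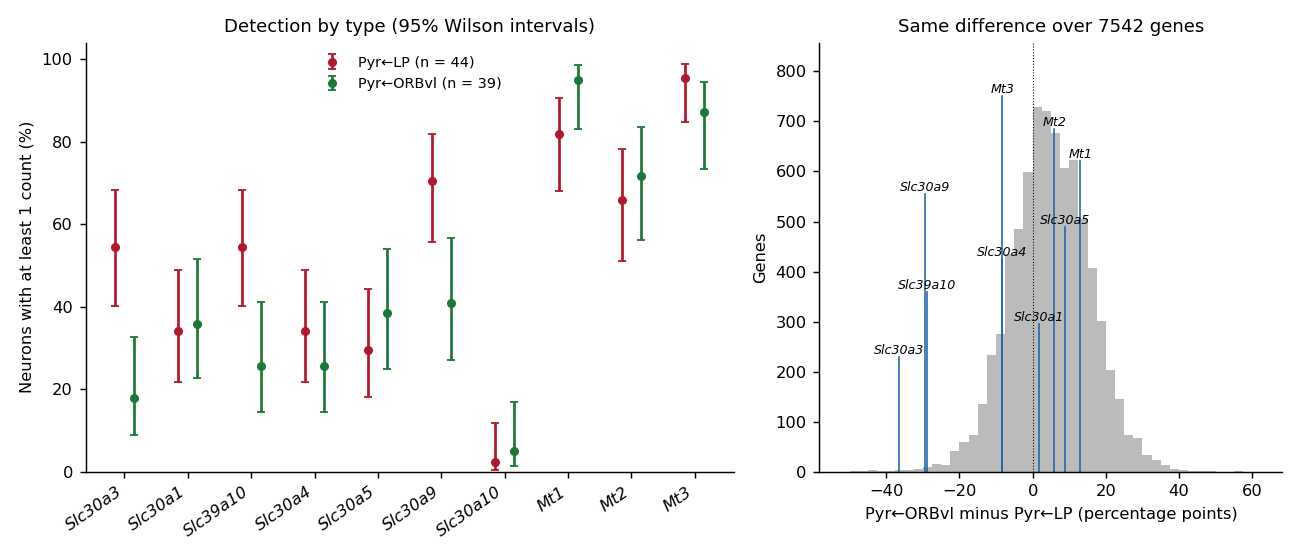
Left, percentage of kept neurons with at least 1 count, by type, with 95% Wilson intervals (44 Pyr←LP neurons in red, 39 Pyr←ORBvl neurons in green). Right, histogram of the difference in that percentage over the 7542 genes that passed the filter, with lines at the genes described, whose heights have no meaning. Slc30a3 (-36.6 points), Slc30a9 (-29.4) and Slc39a10 (-28.9) are the lowest of the genes marked. Slc30a3 was chosen for this readout, and Slc30a3, Slc30a4 and Slc39a10 passed the filter only through the Pyr←LP neurons.

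Expression was compared between the types on counts summed per recording prefix and type, over the 14 prefixes with both types, with the prefix as a block (edgeR quasi-likelihood test, TMM normalization, Benjamini-Hochberg adjustment over 7542 genes). Calls needed an adjusted p under 0.05 together with a change of more than 2-fold. A positive log2 fold change means higher in the Pyr←ORBvl neurons. Of the 8 tested genes, 0 were called, beside 3 of all genes (0.0398%). Among the 8, Slc30a4 and Slc39a10 passed the filter only through their Pyr←LP neurons. An unadjusted p under 0.05 was found for 4.76% of all genes.

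The lowest fold changes among the tested genes were those of Slc39a10 and Slc30a9. Slc39a10, which passed the filter only through its Pyr←LP neurons, had a log2 fold change of -6.17 ± 1.70 (SE, adjusted p = 0.185, edgeR). As it was selected where it was high, its values here are a description and not support. In its 14 pairs of sums the level was higher in the Pyr←LP neurons in 12. The Pyr←LP sums ran from 0 to 3607 TMM-normalized CPM (median 114) and the Pyr←ORBvl sums from 0 to 184 (median 0). As 8 of the 14 Pyr←ORBvl sums were 0, the size of this fold change depends on how zeros are handled. Slc30a9 had -3.87 ± 1.58 (SE, adjusted p = 0.830, edgeR). Its sums were higher in the Pyr←LP neurons in 12 of 14 pairs, with medians of 109 and 29.1 TMM-normalized CPM.

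The call for Slc39a10 changed with the processing. This gene passed the filter through its Pyr←LP neurons (at least 5 counts in 18, against 6 Pyr←ORBvl neurons), so these calls are of a gene selected where it was high and are given to show how the fits differ, not as support. It was called on the same sums with RLE normalization (adjusted p = 0.0484, beside 0.0796% of all genes called) and with prefixes that differ by a hyphen kept apart (adjusted p = 0.0467, 0.0530% of genes). It was also called without prefix 826 (adjusted p = 0.0494, 0.0796% of genes) and with neurons as replicates and the prefix as a block (adjusted p = 0.0424, 1.90% of genes). DESeq2 on the sums called Slc39a10 (adjusted p = 7.63e-07) and Slc30a9 (adjusted p = 3.45e-05), in a fit that called 7.04% of all genes. With neurons as replicates and no block, edgeR called 0 of the 8 (2.25% of all genes) and gave Slc39a10 an adjusted p of 0.0735, and DESeq2 called 0 of the 8 (0.570% of all genes). Over all 30 other fits the adjusted p of Slc39a10 ran from 7.63e-07 to 1.00, and its log2 fold change from -6.92 to -1.56.

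No tested gene was called in this fit, and the fold changes of the other tested genes were smaller than their SE. Slc30a1 had a log2 fold change of 1.84 ± 2.27, Slc30a4 of -0.99 ± 2.22 and Slc30a5 of -1.36 ± 2.15 (SE). Mt1 had 0.56 ± 0.97, Mt2 0.33 ± 1.62 and Mt3 0.92 ± 1.07 (SE), each with an adjusted p of 0.999 (edgeR). Leaving out 1 prefix moved Slc30a1 between 1.27 and 2.43, Slc30a4 between -1.79 and -0.27, and Slc30a5 between -1.95 and -0.74. It moved Mt1 between 0.33 and 0.70, Mt2 between -0.03 and 0.72 and Mt3 between 0.68 and 1.23. With standard errors of this size, differences of several fold could not be seen at this depth and number of prefixes. The untested value of Slc30a3 in the same fit was -5.79 ± 2.51 (SE), and 9 of its 14 Pyr←ORBvl sums were 0. It ran from -6.89 to -4.60 when 1 prefix was left out, and was nearer to 0, from -3.06 to -1.59, with limma on mean log values and with all prefixes and no block.

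**Figure D3:**
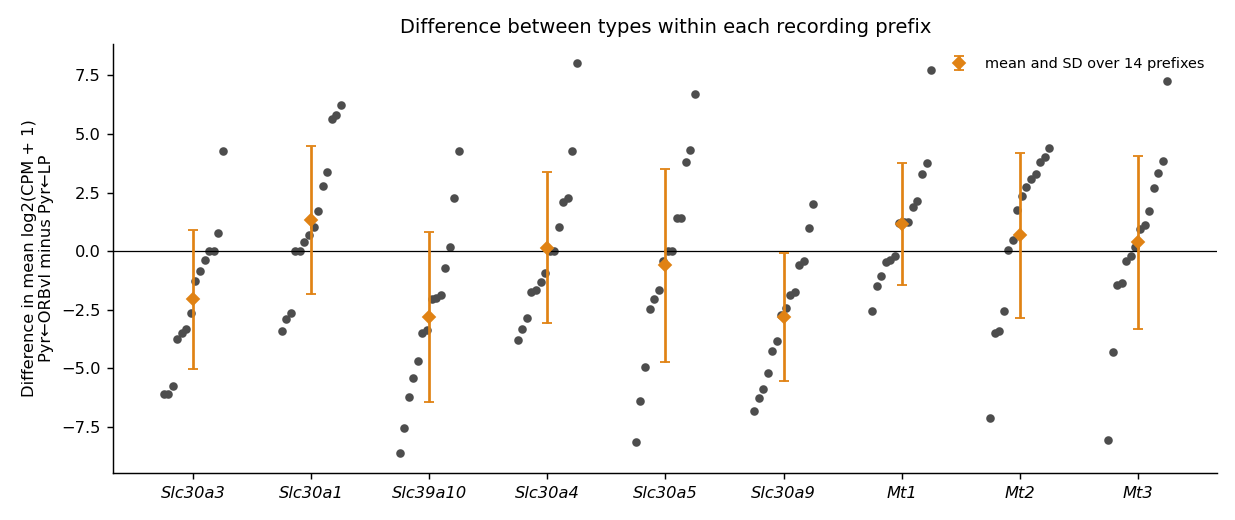
Difference in mean log2(CPM + 1) between the types (Pyr←ORBvl minus Pyr←LP) within each of the 14 recording prefixes with both types (grey points, ordered by value for each gene), with the mean and SD over prefixes in orange. For Slc30a9 the mean was -2.79 and for Slc39a10 -2.81, with most prefixes below 0, whereas the metallothioneins are spread on both sides of 0.

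**Figure D4:**
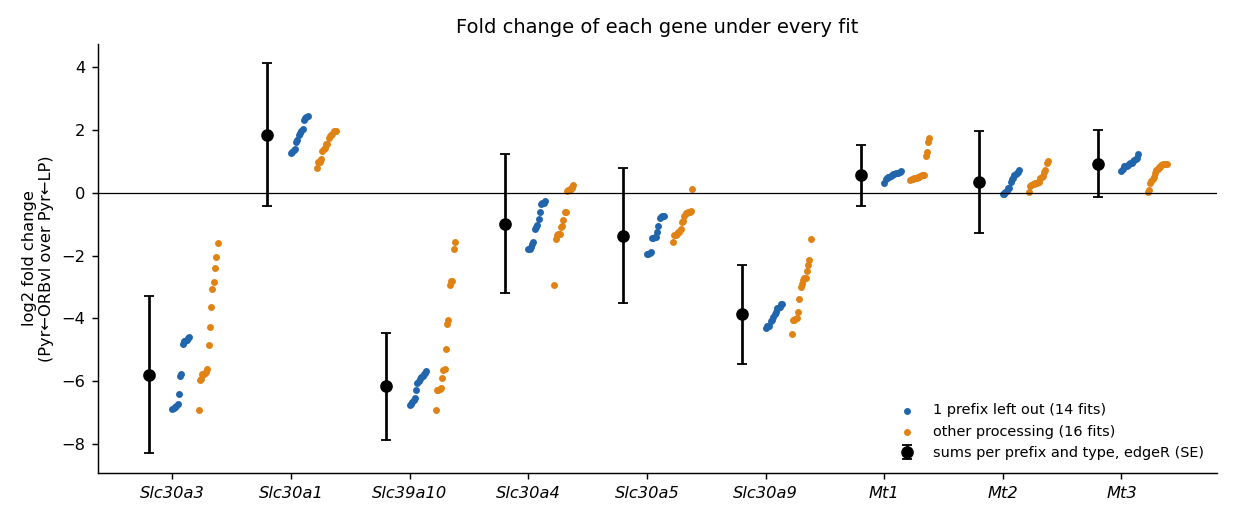
log2 fold change (Pyr←ORBvl over Pyr←LP) of each gene in the fit on sums per prefix (black, with SE), in 14 fits that left out 1 prefix each (blue) and in 16 fits with other processing (orange). Slc30a9 and Slc39a10 are below 0 in every fit shown, Slc30a4, Slc30a5 and Mt2 cross 0, and the value of Slc30a3 is a description. The fits draw on the same neurons and are not independent of each other. Slc39a10 passed the filter only through its Pyr←LP neurons.

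Other genes of zinc handling were taken from a list of 27 that holds further ZnT and ZIP transporters, Mt4, Mtf1 (the metal-sensing factor), Gpr39 (a zinc receptor) and 7 subunits of AP-3, the adaptor that sorts ZnT3 to synaptic vesicles. Of these, 13 passed the filter and 0 were called on the sums per prefix, beside 0.0398% of all genes tested. The value was lower in the Pyr←ORBvl neurons for 8 and higher for 5, beside 44.2% of all genes tested with a lower value. The median log2 fold change was -0.67, beside 0.23 over all genes tested. The AP-3 subunit Ap3m1 alone had an unadjusted p under 0.05 (log2 fold change -4.57 ± 1.99, adjusted p = 0.893, edgeR). The next largest values were those of the importer Slc39a7 (4.48 ± 2.58, adjusted p = 0.999, edgeR) and the AP-3 subunit Ap3d1 (1.64 ± 2.05, adjusted p = 0.999, edgeR). Mtf1, named for its role after its values were seen, was detected in 20 of 44 and 21 of 39 neurons. Slc30a2, Slc30a8, Slc39a4, Slc39a5 and Mt4 had no count in any kept neuron.

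Across neurons the metallothioneins varied together only in part. Over the 83 neurons Pearson's r of log2(CPM + 1) was 0.32 for Mt1 and Mt2, 0.37 for Mt1 and Mt3 and 0.13 for Mt2 and Mt3 (Spearman's rho 0.47, 0.24 and 0.10). For Mt1 and Mt2, neighbours on chromosome 8, rho was 0.44 over the Pyr←LP and 0.52 over the Pyr←ORBvl neurons. Library depth and neurons at 0 are shared between these points, so the values are given without a test.

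Because glia express Mt1 and Mt2, markers of other cell types are given beside them. All 11 astrocyte markers listed were found in some kept neurons of each type, and their summed log2(CPM + 1) ran from 1.62 to 69.4 in the Pyr←LP neurons (median 23.1) and from 1.93 to 56.8 in the Pyr←ORBvl neurons (median 21.6). Of the list, Aqp4 was found in 2 of 44 and 1 of 39 neurons, Gja1 in 2 and 1, Gjb6 in 2 and 6, Mlc1 in 4 and 4 and Gfap in 8 and 9. Slc1a3 (9 and 11), Aldh1l1 (10 and 4) and Sox9 (11 and 13) lay between, and S100b (21 and 22), Slc1a2 (36 and 25) and Aldoc (41 and 33) were the most common. The summed markers had r = 0.44 with Mt1, 0.31 with Mt2 and 0.38 with Mt3 over the 83 neurons. Neurons were also described by 5 of the 11 markers (Gfap, Aqp4, Gja1, Mlc1 and Gjb6), a choice made with results known. In the 54 neurons with no count for these, Mt1 was detected in 46, Mt2 in 35 and Mt3 in 49, with medians of 220, 49.0 and 225 CPM. In the 29 neurons with a count for at least 1 of them, Mt1 was detected in 27, Mt2 in 22 and Mt3 in 27, with medians of 411, 95.9 and 269 CPM. By type, the median of Mt2 was 10.05 CPM without and 160 CPM with such a count in the Pyr←LP neurons (31 and 13), and 51.4 and 77.5 CPM in the Pyr←ORBvl neurons (23 and 16), and a difference between the types in this was not tested. In the Pyr←ORBvl neurons Mt2 was detected in 73.9% of neurons without and 68.8% with them, at means of 155 and 139 CPM, and Mt1 in 95.7% and 93.8%. The mean of 155 CPM includes the 1210 CPM of neuron 13, which rest on 14 counts of a library of 11566. The medians of Mt2 given above have the opposite order.

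Markers of other types are given in the same way. Of 6 oligodendrocyte markers, Mbp (42 of 44 and 39 of 39 neurons) and Mobp (36 and 31) were found in most neurons, while Mog and Mag were at 0 in the Pyr←LP neurons and in 1 and 3 of the Pyr←ORBvl neurons. The sum of the list reached 38.4 in the Pyr←LP and 46.3 in the Pyr←ORBvl neurons and had r = 0.28 with Mt1, 0.17 with Mt2 and 0.42 with Mt3 over the 83 neurons. For Mt3 it was 0.64 over the Pyr←LP and 0.23 over the Pyr←ORBvl neurons. All 7 microglia markers were found in each type, with sums from 0 to 78.1 (median 25.02) and from 0.94 to 70.1 (median 28.9), and r of 0.30, 0.36 and 0.27 with Mt1, Mt2 and Mt3. For Mt2 it was 0.54 over the Pyr←LP and 0.11 over the Pyr←ORBvl neurons. The 4 endothelial markers were at 0 in 41 of 44 and 37 of 39 neurons, with Cldn5 at 0 in all, and had r between -0.04 and 0.00389 with the 3 genes. GABAergic markers were at 0 in 26 and 21 neurons, with r of 0.24, 0.29 and 0.20. The pan-neuronal list had r of 0.16, 0.09 and 0.28 over the 83 neurons. The part of RNA from neighbouring cells in the metallothionein levels was not tested.

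**Figure D5:**
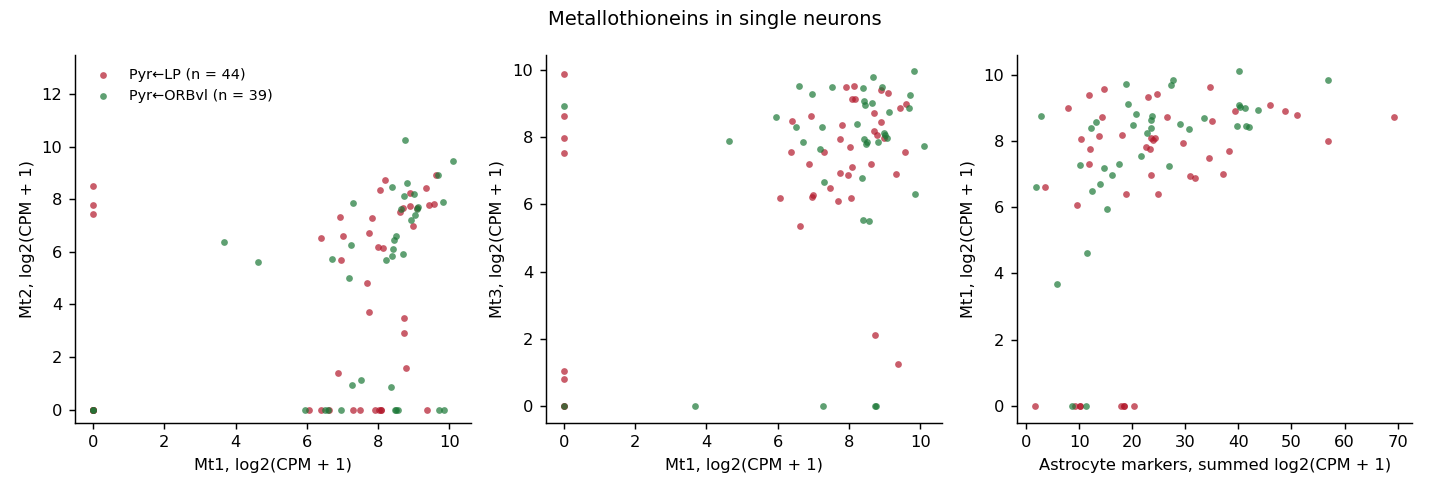
Metallothionein levels in the kept neurons as log2(CPM + 1), with 44 Pyr←LP neurons in red and 39 Pyr←ORBvl neurons in green. Left, Mt2 against Mt1, middle, Mt3 against Mt1, right, Mt1 against the summed level of 11 astrocyte markers. Neurons with a count lie mostly between 6 and 10 on the Mt1 axis in both types, and Mt1 is high in neurons with low as well as high astrocyte sums (r = 0.44 over 83 neurons).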

How the data were processed

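Single neurons were sequenced after whole-cell recording, without molecular identifiers. The authors deposited raw read counts per gene and FPKM values for the same neurons. Reads had been aligned with STAR 2.5.3 to GRCm38 (submitters' processing notes), duplicates removed, and uniquely aligned reads counted over RefSeq exons. The tool and gene lengths behind the deposited FPKM are not given in the sources used here, and FPKM was 0 exactly where the count was 0.

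The genes and lists were chosen with earlier results of these data known. Counts were scaled to CPM, and log values used a pseudocount of 1. Neurons with fewer than 500 counts, or a sum of log2(count + 1) over 3 inhibitory genes above 7, were left out. No deposited total was below the minimum, and the 83 neurons kept are not exactly the set the study kept. Genes needed at least 5 counts in at least 10 neurons. Counts were summed per recording prefix and type (14 prefixes, 38 Pyr←LP and 37 Pyr←ORBvl neurons) and tested with edgeR 4.0.16 (quasi-likelihood, robust, TMM, prefix as a block), with SE taken as the log2 fold change over the root of F. DESeq2 1.42.0, limma 3.58.1, neurons as replicates, other filters and scalings, and each prefix left out were alternatives. Detection used Fisher's exact test. Other tools were R 4.3.3, Python 3.11.15, numpy 2.4.6, pandas 2.3.3, scipy 1.17.1, Biopython 1.88 and matplotlib 3.10.9. Scripts were tested on simulated data.

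All 10 genes are named. Of the other zinc genes, those called are named, or else the 3 that changed most on the log2 scale in either direction, along with the 5 genes most like Slc30a3 in the Pyr←LP neurons, and Slc17a7 and Fezf2. Totals ranged from 2410 to 1948982 counts per neuron. Intervals cover counting and sampling error only, and p-values do not cover differences between mice, whose neurons are not named.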

Additional observations from a re-analysis of the deposited data

How the results depend on the processing

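The number of genes called on sums per prefix was 3. It was 6 with RLE normalization, 17 with all prefixes and no block, 531 with DESeq2 on the sums, 143 with neurons as replicates and the prefix as a block, 170 without that block and 43 with DESeq2 on neurons. It was 1 with limma on log2(CPM + 1), log2(CPM + 0.1) or log2(FPKM + 0.1), with all 91 neurons, and with all 91 except neuron 11 of Pyr←ORBvl (chosen after seeing the data). Leaving out 1 prefix gave 1 to 6. Of the 8 zinc genes tested, 0 were called, against 1 with the prefix block over neurons, RLE or hyphenated prefixes apart, 2 with DESeq2 on the sums, and 0 to 1 without 1 prefix (1 without prefix 826). Of the other zinc genes 0 were called, against 1 with the prefix block over neurons and 2 with DESeq2 on the sums.

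The log2 fold change of Slc30a4 turned positive with limma (0.148, 0.248, 0.0585 and 0.157 for CPM + 1, CPM + 0.1, FPKM + 1 and FPKM + 0.1) and with all 91 neurons (0.0899, and 0.0889 without neuron 11). That of Slc30a5 was 0.13 with the exclusion on the TPM scale, and that of Mt2 ran from -0.0260 to 0.718 when 1 prefix was left out, below 0 without prefix 822 or 831 (-0.0250). The detection difference of Slc30a1 was -3.33 points after thinning, and that of Mt3 was 7.34 points at 5 or more counts and 10.5 after thinning. The cause was not tested. The other 225 of 240 fold changes kept direction and side of the threshold, and 6 passed it only in the alternative. Shallow libraries limit detection of each gene. The order of the genes by mean FPKM under other lengths, or without neuron 16 of Pyr←LP, was also chosen after seeing the data.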
